A study of Rattus norvegicus with 24 samples.

Results

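Forebrain of dihydrotestosterone-treated rats was set against 3 other tissues of rats given the same treatment, to describe which genes were higher or lower in forebrain than in all of them. The forebrain arrays were the 3 that the labels give as forebrain with DHT, of 24 arrays in the series, and they were compared with 3 prostate, 3 ovary and 3 skin arrays, all with DHT. The rats were Sprague-Dawley animals of 12 weeks. Forebrain, prostate and skin came from males that had been castrated and, 3 days later, injected once into the peritoneum with 10 mg/kg DHT, the androgen made from testosterone by 5-alpha-reductase. Ovary came from intact females given the same dose. Tissues were taken 16 h after the dose. Every array in these comparisons was therefore androgen-treated, and tissue and sex cannot be told apart in the comparison with ovary. The design text calls the 3 samples of a group biological replicates.

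Forebrain holds neurons, which carry signals along axons built on neurofilaments and release glutamate, GABA and neuropeptides at synapses, and glia. Astrocytes clear transmitter and buffer ions, oligodendrocytes wrap axons in myelin, and microglia are the resident macrophages. Prostate, ovary and skin are built from epithelium, connective tissue, smooth muscle and fat, with few neurons, so that the comparison sets the genes of nervous tissue against those of peripheral organs.

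Each array was a 1-colour Agilent rat array, which measures RNA by the brightness of labelled copies bound to probes. A level is given throughout on a log2 scale relative to the array's own 75th percentile, so that 0 stands for that percentile and 1 unit for a 2-fold difference. A difference is the mean level in forebrain minus the mean level in the other tissue, with the standard error of limma from 1 fit over the 12 DHT arrays. A gene is called higher or lower than another tissue where the Benjamini-Hochberg adjusted p of limma was under 0.05, and higher or lower than every other tissue where this held with the same sign in all 3 comparisons. In these bulk samples, fewer cells of a type and less RNA per cell cannot be told apart.

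The 12 arrays differed in brightness. The 75th percentile of the signal lay between 1028 and 1382 on the forebrain arrays, between 486 and 1155 on the prostate arrays and between 1291 and 1421 on the ovary arrays, but between 55.4 and 203 on the skin arrays. Dim probes were measured less far down in skin: the lowest level well above background was -4.80 to -3.22 on the skin arrays and -6.36 to -5.08 on the forebrain arrays. Forebrain array 1 stood apart, with 87.5% of probes well above background, where the lowest forebrain array had 65.3%. A gene that no array of a tissue measured well above background has only an upper bound there, and its fold is given as "at least". The bound of an array is its lowest measured level or the gene's own level, whichever is higher, and the means over arrays were compared. The number of arrays limits the precision.

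Nefl, Nefm and Gad1, the genes chosen to mark this tissue, separated the forebrain arrays from all others. Nefl encodes the light neurofilament chain. Its level was 3.86, 4.04 and 4.03 on the 3 forebrain arrays, -3.09, -3.58 and -3.94 in prostate, -5.70, -5.50 and -5.92 in ovary, and -3.93, -4.35 and -4.43 in skin. The forebrain arrays did not overlap with any other, and the differences were 7.51, 9.69 and 8.21, each ± 0.24, with adjusted p of at most 5.4e-09. Nefm, the medium neurofilament chain, stood at 5.87, 5.97 and 5.86 in forebrain, against -2.06, -2.99 and -3.21 in prostate and -3.21, -3.87 and -3.24 in ovary. It was 403-fold and 649-fold higher than in these, and at least 1146-fold higher than in skin, where it was not well above background. Gad1 encodes the enzyme that makes GABA. It stood at 0.83, 0.74 and 0.98 in forebrain and between -7.96 and -3.89 on the other 9 arrays, and its groups did not overlap. It was at least 66.5-fold higher than in prostate, 84.5-fold higher than in ovary, where 1 of 3 arrays was well above background, and at least 34.5-fold higher than in skin, with adjusted p of at most 2.4e-05.

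**Figure D1:**
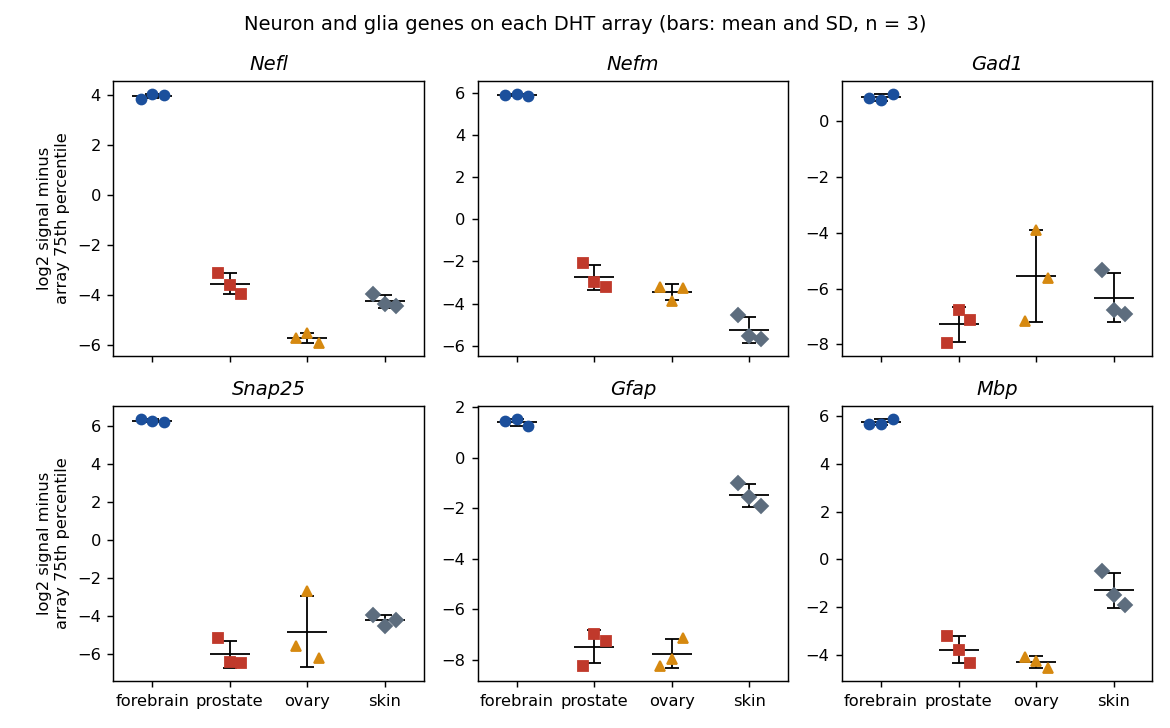
Level of 6 neuron and glia genes (y axis, log2 signal minus the 75th percentile of the array) on each of the 3 DHT arrays of forebrain, prostate, ovary and skin (x axis); points are arrays and black bars the mean and SD. The 3 forebrain arrays of Nefl lie between 3.86 and 4.04, above every other array, and Gfap and Mbp are nearer to forebrain in skin than in prostate or ovary.

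Of 31896 features tested, 7602 of them with a gene symbol, 4867 (15.3%) were higher in forebrain than in every other tissue and 5024 (15.8%) were lower. Genes with a symbol made up 1173 of the higher and 1499 of the lower calls. The single comparisons gave more calls. Forebrain was higher than prostate for 8391 features (26.3%) and lower for 10744 (33.7%), higher than ovary for 8103 (25.4%) and lower for 9513 (29.8%), and higher than skin for 9661 (30.3%) and lower for 12592 (39.5%). The median difference over all features was -0.19 against prostate, -0.04 against ovary and -0.35 against skin, and the values below are to be read against it. Every forebrain array lay above every other array for 5696 features (17.9%) and below for 5867 (18.4%). These groups without overlap held 4807 of the 4867 higher calls and 4806 of the 5024 lower calls.

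A difference of at least 2-fold from each tissue was found for 4000 of the higher and 3457 of the lower calls. The tissue nearest to forebrain was skin for 41.0% of the higher calls, ovary for 38.4% and prostate for 20.6%. Among lower calls it was ovary for 42.2%, skin for 33.1% and prostate for 24.7%. The probe was well above background on all 3 forebrain arrays and on none of the other 9 for 613 features, and the reverse was found for 39. Such features passed the filter on dim probes only through the side where they were high, so that their calls carry no further information.

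The vehicle-treated arrays of the same tissues, which took no part in these tests, gave the same direction for most calls. They lie on other slides and number 11, since 1 forebrain vehicle array is labelled as failing quality control and was not used. Ovary vehicle arrays 1 and 3 stood apart, with 96.5% and 97.0% of probes well above background, where the ovary DHT arrays had 61.8% to 78.5%. Prostate vehicle array 3 had 1531 outlier spots, against at most 245 on the prostate DHT arrays. Of the 4867 higher calls, 4805 were also tested on the vehicle arrays, and 4504 (93.7%) had the same sign in all 3 comparisons. The call itself was repeated for 2402 of them, against 8.09% of all features tested on the vehicle arrays. Of the lower calls, 5009 were tested, 4743 (94.7%) had the same sign throughout and 2395 (47.8%) were called again, against 9.28% of all features. No call was opposite.

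Among genes measured on at least 2 of 3 arrays of every tissue, Nell2 lay farthest above the nearest tissue. Nell2, a secreted protein of neurons, stood at 7.31, 7.31 and 7.05 in forebrain and between -3.61 and -2.23 on the other 9 arrays. It was 722-fold higher than in prostate, the nearest tissue, with differences of 9.50, 10.33 and 10.39, each ± 0.26. Also among the first 15 were Hpca, a neuronal calcium sensor with a smallest difference of 9.12, Atcay (7.84), Nefl (7.51), Slc6a17, a vesicular amino acid transporter (7.47), Rnf112 (7.43), Nell1 (7.33), Nrgn, a postsynaptic calmodulin-binding protein (7.27), Lin7b (7.25), Vsnl1, a calcium sensor (7.15), Mbp, myelin basic protein (7.04), and Scg5, a chaperone of a prohormone convertase (6.95). Their adjusted p was at most 5.4e-07 in every comparison, and each was called higher on the vehicle arrays too.

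**Figure D2:**
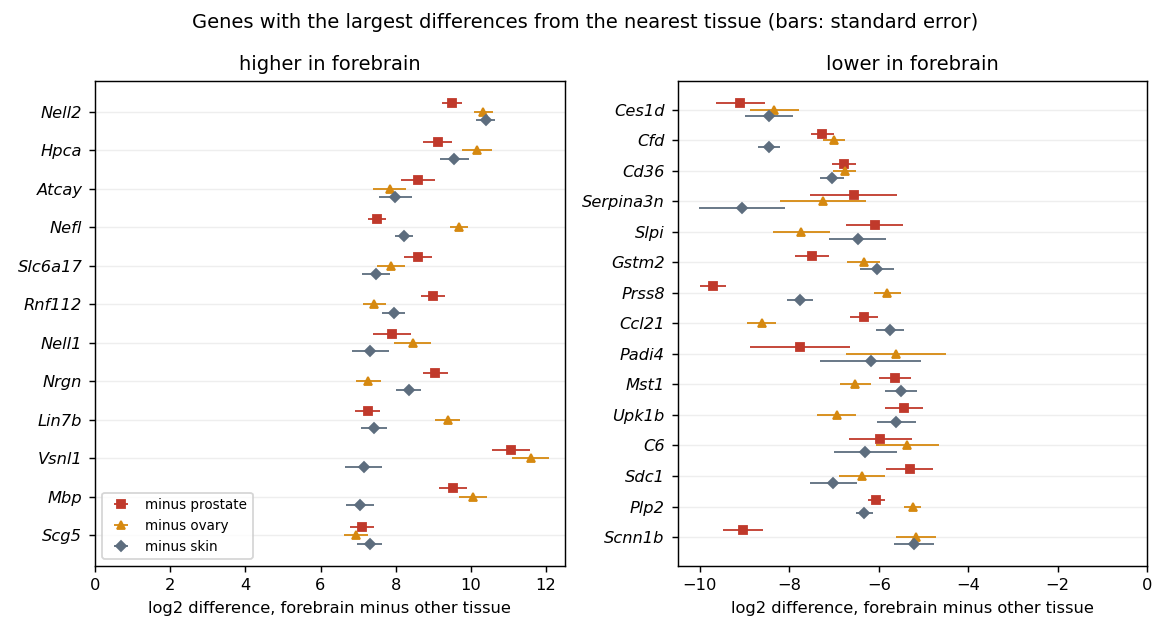
Difference between forebrain and each other tissue (x axis, log2) for 12 of the 15 genes with a symbol that lay farthest above the nearest tissue (left) and the 15 that lay farthest below it (right); points are the 3 comparisons and bars the standard error. Nell2 leads the left panel with a smallest difference of 9.50 and Ces1d the right panel with -8.34.

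Gene lists are described next by how many of their tested members were called. Of 485 entries in 34 lists, 363 were on the array with a symbol and 349 passed the filter on dim probes, which a gene can pass through forebrain alone or through 1 other tissue alone. The counts therefore describe the tested members and not all members. They are to be read against the shares over all features tested, 15.3% higher and 15.8% lower. Among tested features with a symbol the shares were 15.4% and 19.7%. A count near these shares says nothing particular about the members of a list.

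The structural genes of axons were higher in forebrain for 11 of the 12 tested, with none lower. Their median differences were 7.91 against prostate, 8.59 against ovary and 5.70 against skin, where the medians over all features were -0.19, -0.04 and -0.35. With each gene that was dim in the other tissue set to its bound, the medians of the list were 7.64, 8.59 and 5.70. The list's mean level lay between 3.80 and 3.90 on the forebrain arrays and between -3.96 and -2.20 on all others. Ina, alpha-internexin, stood at 4.69, 4.64 and 4.49 in forebrain, and was at least 901-fold higher than in prostate and at least 468-fold higher than in skin. Tubb3, neuronal beta-tubulin, was nearer to forebrain in ovary, with a difference of 3.30 ± 0.25 there and of 6.81 and 6.07 against prostate and skin. Mapt, which encodes tau, stood at 5.46, 5.40 and 5.46 and had its smallest difference, 4.39 ± 0.26, against skin. The member that was not called was Ank3, the ankyrin of the axon initial segment.

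Genes of GABA neurons were higher for 11 of 13 and those of glutamate neurons for 14 of 14, with none lower. The median differences were 6.79, 6.40 and 5.13 for GABA genes against prostate, ovary and skin, and 6.77, 7.0 and 5.63 for glutamate genes. With each gene that was dim in the other tissue set to its bound, they were 5.54, 6.04 and 4.26 for GABA genes and 6.69, 6.86 and 4.35 for glutamate genes. The GABA-B receptor subunit Gabbr2 stood at 5.02, 5.05 and 5.0, against -5.81 to -2.54 on the other arrays. Slc32a1, the vesicular GABA transporter, was closest in skin, with a difference of 4.26 ± 0.49. Gria2, an AMPA receptor subunit, stood at 3.56, 3.42 and 3.38, and was at least 405-fold higher than in prostate and at least 210-fold higher than in skin, where it was not well above background. In ovary, 1 of 3 arrays measured it. Slc17a7, the vesicular glutamate transporter of cortex, stood at -0.01, 0.15 and 0.16, against -7.22 to -5.44 on the other arrays.

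Pvalb, the calcium buffer of fast-spiking GABA neurons, was not called because it was brighter in skin. It stood at 4.12, 3.86 and 4.06 in forebrain, at -4.41, -3.94 and -4.31 in prostate, at -6.42, -3.15 and -3.84 in ovary, and at 9.87, 7.88 and 6.86 in skin. The difference was -4.19 ± 0.84 against skin, with an adjusted p of 0.0011, and 8.23 and 8.48 against prostate and ovary. Skeletal muscle also makes parvalbumin, and the skin arrays held muscle RNA: the mean level of the 5 skeletal muscle genes measured on all 12 arrays, Pvalb among them, lay between 8.44 and 10.24 on the skin arrays and between -4.32 and -0.55 on the others. Their part in the value of Pvalb was not tested.

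The release machinery of synaptic vesicles was higher for 17 of 19 genes and the postsynaptic scaffold and adhesion genes for 11 of 13. Median differences were 5.32, 4.93 and 5.59 for the first and 5.86, 4.41 and 4.58 for the second. With dim genes at their bound they were 4.91, 4.59 and 4.40 for the first and 5.86, 4.41 and 4.34 for the second. A bound is a lower limit, and dim probes were measured less far down in skin, so these medians do not rank the tissues. Snap25, a membrane fusion protein of the synapse, stood at 6.41, 6.28 and 6.23 in forebrain and between -6.43 and -2.66 elsewhere, with differences of 12.31, 11.10 and 10.52, each ± 0.74, and adjusted p of at most 6.4e-07. Syp, synaptophysin, stood at 4.63, 4.81 and 5.0, and was at least 1040-fold higher than in prostate. Vamp2, the vesicle partner of Snap25, was well above background on all 12 arrays, at 4.64, 4.63 and 4.64 in forebrain and between 1.06 and 2.23 elsewhere. Its smallest difference was therefore 2.64 ± 0.16. Shank1, a scaffold of the postsynaptic density, came as near as 1.42 ± 0.23 to forebrain, in skin. Sv2b, Bsn and Nlgn3 were among those not called. The 2 probes of Sv2b differed: the brighter one, used here, had differences of -2.43, -0.59 and -2.91. The other was called higher, with differences of 4.44, 6.93 and 6.12.

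Genes of voltage-gated channels were higher for 11 of 16. The sodium channel Scn2a stood at 4.47, 4.25 and 4.41 in forebrain, and at -5.59, -4.74 and 0.06 in ovary, where 1 array was far above the other 2. Cacna1b, the N-type calcium channel, stood at 3.78, 3.62 and 3.69 and at most at -4.05 elsewhere by its brighter probe. Its other probe was not called, with differences of 2.67, 2.90 and 0.46.

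Neuropeptides, granins and the enzymes that process them were higher for 13 of 19 genes, with median differences of 6.60, 6.44 and 5.66. With dim genes at their bound the medians were 6.22, 6.12 and 4.18. Sst, somatostatin, stood at 4.39, 4.47 and 4.50 in forebrain. It was not well above background in prostate and skin, where forebrain was at least 810-fold and at least 420-fold higher, and was measured on 1 of 3 ovary arrays. Vgf, a secreted granin-like protein, stood at 5.73, 5.71 and 5.73, against -3.52, -0.55 and -2.18 in ovary, with a difference of 7.80 ± 0.61 there. Scg2, a granin, stood at 1.14, 1.52 and 1.28, and Cartpt, a feeding-related peptide, at -0.59, -0.81 and -0.91, and both lay above every other array.

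The 4 promoters of neuropeptide and granin genes that hold the palindrome TGACGTCA, the cAMP response element, are shown for comparison. Windows are RefSeq sequence of the GRCr8 assembly, 250 bases before to 20 after the annotated start, 5′ to 3′ along the strand of the gene, at chr11:90461296-90461565 (+) for Sst, chr2:32991216-32991485 (-) for Cartpt, chr9:88256847-88257116 (-) for Scg2 and chr12:25277001-25277270 (-) for Vgf. Capitals mark TGACGTCA and, in Scg2 alone of these, GGTGCTGAA, the other-strand reading of TTCAGCACC.
Sst: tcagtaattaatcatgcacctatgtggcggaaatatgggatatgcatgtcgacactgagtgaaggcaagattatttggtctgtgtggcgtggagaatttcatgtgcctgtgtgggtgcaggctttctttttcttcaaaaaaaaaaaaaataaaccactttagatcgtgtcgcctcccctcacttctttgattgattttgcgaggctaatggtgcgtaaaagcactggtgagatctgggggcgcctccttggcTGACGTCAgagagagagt
Cartpt: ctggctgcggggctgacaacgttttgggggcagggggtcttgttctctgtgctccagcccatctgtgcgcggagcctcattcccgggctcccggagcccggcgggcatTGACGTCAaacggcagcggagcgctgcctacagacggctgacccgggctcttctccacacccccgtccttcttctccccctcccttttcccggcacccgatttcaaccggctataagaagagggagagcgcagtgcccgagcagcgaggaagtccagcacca
Scg2: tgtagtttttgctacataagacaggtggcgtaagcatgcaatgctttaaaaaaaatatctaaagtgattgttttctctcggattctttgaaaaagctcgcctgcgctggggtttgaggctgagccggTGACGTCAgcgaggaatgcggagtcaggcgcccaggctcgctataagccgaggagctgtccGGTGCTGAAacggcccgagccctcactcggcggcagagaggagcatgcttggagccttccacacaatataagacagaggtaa
Vgf: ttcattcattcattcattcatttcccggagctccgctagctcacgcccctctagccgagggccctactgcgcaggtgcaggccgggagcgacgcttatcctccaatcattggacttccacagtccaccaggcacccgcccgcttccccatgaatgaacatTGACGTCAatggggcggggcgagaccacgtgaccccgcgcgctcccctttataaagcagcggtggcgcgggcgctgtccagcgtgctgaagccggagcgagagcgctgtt

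The palindrome starts 142 bases before the annotated start in Cartpt, 123 before in Scg2 and 90 before in Vgf, and at base 3 after it in Sst. In windows of 300 bases, 250 before to 50 after the start, on both strands, it was found in 36 of the 901 higher genes with a window (4.00%) and 28 of 1183 lower genes (2.37%). The share was 2.91% (179 of 6161) among all tested genes and 2.0% (549 of 27457) among all genes with a window. Of the 19 peptide and granin genes, 14 had a window, and the 4 matches were all among the 10 of these that were called higher. The letters TTCAGCACC, the left part of repressor element 1, to which a silencer of neuronal genes binds, were found in 14 of 901 higher genes (1.55%), in 1 of 1183 lower genes (0.0845%) and in 28 of 6161 tested genes (0.454%). These 14 were Arf3, Cacng3, Celsr3, Dab1, Elavl4, Fads1, Kcnh6, Kidins220, Lhfpl5, Rapgef5, Scg2, Tmem196, Tmem218 and Unc13a. A match describes letters in a window and not a bound site, and the shares carry no test.

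Among the peptides that were not called, Cck was high in both forebrain and skin. Cck, cholecystokinin, stood at 6.01, 5.84 and 5.93 in forebrain, -3.20, -4.09 and -3.75 in prostate, -2.45, -3.60 and -2.48 in ovary, and 5.65, 4.83 and 5.26 in skin. The forebrain arrays lay above all others, but the difference from skin was 0.68 ± 0.34 with an adjusted p of 0.1. Penk, proenkephalin, stood at 2.80, 2.42 and 2.27 in forebrain and overlapped with ovary, where 1 array reached 2.67. Pomc, Avp, Oxt and Hcrt, peptides made by hypothalamic cells, were not called.

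Of 4 tested genes on the list of forebrain transcription factors, 2 were higher. One was Neurod1, which the list of hindbrain and cerebellar genes holds as well. Neurod1, a neuronal transcription factor, stood at -1.21, -0.96 and -1.37 and was not well above background on any other array, so that it was at least 16.3-fold, 28.6-fold and 8.47-fold higher than in prostate, ovary and skin. Genes of striatal medium spiny neurons were higher for 8 of 12, with median differences of 3.15, 3.54 and 2.76. With dim genes at their bound the medians were 2.68, 3.28 and 2.76. Drd1, the dopamine D1 receptor, stood at -3.40, -4.62 and -4.44, where array 1 was the highest, and was not well above background elsewhere. Its bound against skin was only 1.08-fold. Ppp1r1b, a dopamine-regulated phosphatase inhibitor, was not called, since prostate stood at 0.61, 1.38 and 0.94 and forebrain at 0.33, 0.02 and 0.09. Drd2 stood at -3.09, -3.89 and -3.41 in forebrain and was lower than in skin by -1.82 ± 0.45.

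Of 11 monoamine and acetylcholine genes, 5 were higher and 1 was lower, against 15.3% and 15.8% of all features. Chrna4, a nicotinic receptor subunit, stood at 0.83, 0.92 and 1.13, and was at least 71.9-fold higher than in prostate and at least 37.3-fold higher than in skin. In ovary, 1 of 3 arrays measured it. Slc6a4, the serotonin transporter, was lower in forebrain than in every other tissue, at -4.39, -4.63 and -4.60 against -2.98 to -0.48 on the other 9 arrays. Neurons that make this transporter have their cell bodies in the brainstem. Of the 3 tested genes on the list of hindbrain, cerebellum and Hox genes, Neurod1 and Calb1 were higher and Hoxa2 was lower. Calb1, the calcium buffer calbindin, stood at 1.53, 1.43 and 1.86 and was at least 113-fold, 197-fold and 58.4-fold higher than in prostate, ovary and skin, where it was not well above background. Hoxa2, a patterning gene of the hindbrain, was not well above background in forebrain and was at least 2.0-fold, 2.23-fold and 8.85-fold lower than in these tissues. Pituitary hormone genes gave no higher call: Gh1, Prl, Tshb, Lhb and Cga all overlapped with other tissues, and Gnrh1, the hypothalamic releasing hormone, was lower, at -2.92, -2.87 and -3.25 against -1.61 to -0.07 elsewhere.

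Across all lists, 17 genes were well above background on every forebrain array and on no other. They passed the filter through forebrain alone, so that a higher call was nearly fixed and is not counted here. Among them were Gria1, Grin2a, Grm5, Pclo, Syt4, Kcnc1, Crh, Drd1, Htr1a, Chrnb2, Neurod1, Opalin, Ermn, Slco1c1 and Calb1. Their bounds against skin ranged from 1.08-fold for Drd1 to 327-fold for Opalin, a protein of central myelin.

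Astrocyte genes were higher for 11 of 15, with median differences of 5.63 against prostate, 4.80 against ovary and 2.89 against skin. Gfap, the intermediate filament of astrocytes, stood at 1.43, 1.51 and 1.23 in forebrain, between -8.22 and -6.96 in prostate and ovary, where it was not well above background, and at -1.02, -1.55 and -1.91 in skin. It was therefore measured in skin too, and the difference there was 2.89 ± 0.38, with an adjusted p of 5.4e-05. Aqp4, the water channel of astrocyte endfeet, had its smallest difference in skin as well, 3.12 ± 0.67. Slc1a3, a glutamate transporter, stood at 6.07, 5.83 and 5.83, with differences of 4.91, 4.73 and 4.84. Gja1, a gap junction protein, was not called: it stood at 4.93, 4.87 and 4.60 in forebrain, between 4.81 and 5.13 in ovary, and reached 5.82 in skin. Aldh1l1 was higher in ovary, by -1.80 ± 0.40 as the forebrain minus ovary difference.

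Oligodendrocyte and myelin genes were higher for 12 of 15, with median differences of 5.63, 6.47 and 4.93, or 4.94, 5.70 and 4.80 with dim genes at their bound. Mbp stood at 5.67, 5.68 and 5.90 in forebrain, -3.21, -3.79 and -4.36 in prostate, -4.09, -4.26 and -4.58 in ovary, and -0.48, -1.49 and -1.92 in skin. Its differences were 9.54, 10.06 and 7.04, each ± 0.37. Mag, a myelin adhesion protein, likewise came nearest in skin, with a difference of 5.58 ± 0.53, while Mog, which central myelin carries, had differences of 4.63, 5.36 and 4.80. Opalin stood at 4.17, 4.19 and 3.92 and was at least 1102-fold higher than in ovary. Ugt8, Aspa and Cspg4 were not called.

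Of 10 microglia and macrophage genes, none was higher and 3 were lower, with median differences of -1.50, -0.10 and -0.65. Over all features, 15.3% were higher and 15.8% lower. Cd68, a lysosomal protein of macrophages, stood at -1.65, -1.55 and -1.75 in forebrain and between 2.31 and 3.13 on all other arrays. The groups did not overlap, and the differences were -4.52, -4.26 and -4.33, each ± 0.21. The complement subunit C1qc and the adaptor Tyrobp were the other 2 lower calls, with smallest differences of -1.53 ± 0.27 and -1.55 ± 0.32. P2ry12, a receptor of microglia, stood at 1.14, 1.46 and 1.47 in forebrain and overlapped with prostate at 0.84, 1.34 and 0.80. Cx3cr1 stood at -1.73, -1.57 and -1.31 and also overlapped with prostate, while skin was not well above background.

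Of 7 brain endothelium genes, Cldn5, Slco1c1 and Slc2a1 were higher. Slco1c1, a thyroid hormone transporter of the blood-brain barrier, stood at 3.31, 3.35 and 3.23 and was at least 364-fold, 636-fold and 189-fold higher. Slc2a1, the glucose transporter, was higher by 1.07, 1.28 and 1.12, each ± 0.28. Pecam1, a general endothelial gene, was lower, with differences of -0.89, -2.07 and -2.79, but its call was lost without forebrain array 2 (nearest difference -0.60) or prostate array 3 (-0.83). Among choroid plexus genes, Ttr, transthyretin, was higher at -2.18, -2.55 and -3.20, and Clic6, Aqp1 and Prlr were lower. Aqp1, a water channel, stood at -2.53, -1.98 and -2.50 in forebrain and between 1.87 and 4.40 elsewhere. The call of Clic6 was lost without forebrain array 2 or 3 or ovary array 2 or 3, when its nearest difference was -1.94 to -1.30.

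**Figure D3:**
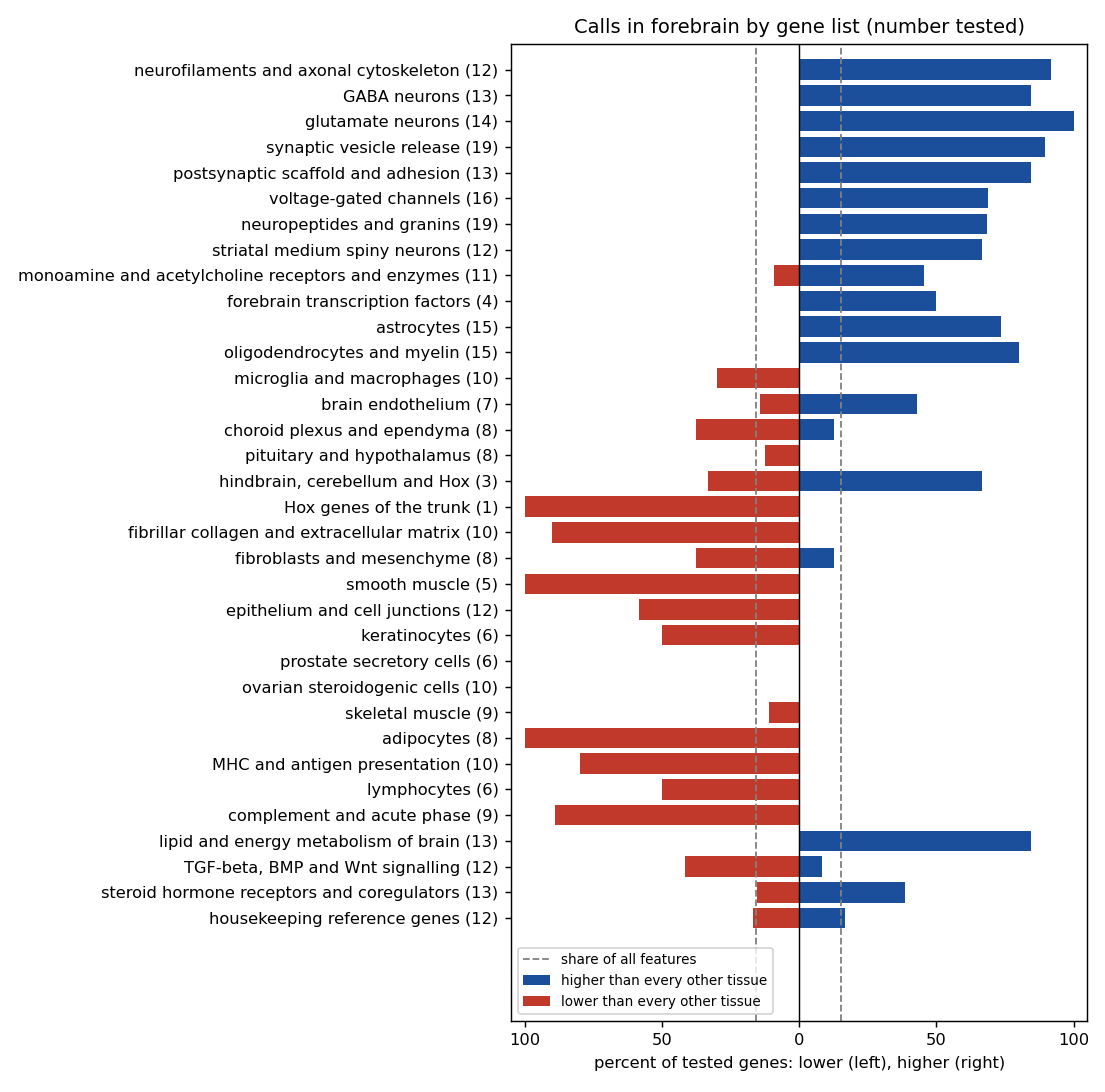
Share of the tested genes of each list (x axis, percent) that was higher (right, blue) or lower (left, red) in forebrain than in every other tissue; the number tested is in parentheses and dashed lines give the share over all features, 15.3% higher and 15.8% lower. Lists of neurons, synapses, astrocytes and myelin extend to the right, and those of matrix, smooth muscle, fat, MHC and complement to the left.

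Among genes measured in the same way, Ces1d lay farthest below the nearest tissue. Ces1d, a carboxylesterase of fat and liver, stood at -3.60, -4.58 and -6.42 in forebrain and between 3.32 and 4.36 elsewhere, and was 324-fold lower than in ovary, the nearest tissue. The rest of the first 15 were Cfd, the adipocyte protease adipsin, with a smallest difference of -7.0, the fatty acid receptor Cd36 (-6.77), Serpina3n (-6.56), Slpi, a secreted protease inhibitor (-6.09), Gstm2 (-6.05), the epithelial protease Prss8 (-5.81), the lymphoid chemokine Ccl21 (-5.75), Padi4 (-5.61), Mst1 (-5.51), Upk1b (-5.45), the complement component C6 (-5.36), the proteoglycan Sdc1 (-5.31), Plp2 (-5.24) and the epithelial sodium channel subunit Scnn1b (-5.16). All were called lower on the vehicle arrays too. Padi4 rests on uneven skin arrays, at -1.30, 3.98 and 4.04, and its adjusted p was at most 0.0015.

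All 8 adipocyte genes tested were lower in forebrain, with median differences of -7.20, -7.59 and -7.76. Adipoq, adiponectin, stood at -5.34, -7.16 and -7.44 in forebrain, and at 3.91, 4.01 and 3.40 in prostate, 3.94, 4.17 and 3.86 in ovary, and 2.53, 2.98 and 2.37 in skin. The differences were -10.42, -10.63 and -9.27, each ± 0.46. Fabp4, the fatty acid carrier of fat cells, was 806-fold, 841-fold and 1675-fold lower. The mean level of the list lay between -4.98 and -3.63 on the forebrain arrays and between 2.27 and 3.44 on the others.

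Extracellular matrix genes were lower for 9 of 10, smooth muscle genes for 5 of 5 and epithelial genes for 7 of 12. Col1a2, a chain of type I collagen, stood at 2.95, 2.71 and 2.45 in forebrain, 5.54, 5.51 and 4.73 in prostate, 6.29, 6.46 and 6.45 in ovary, and 8.86, 8.67 and 8.24 in skin. Its differences grew from -2.56 against prostate through -3.70 to -5.89 against skin, each ± 0.26. Sparc was the matrix gene that was not called. Tagln, a smooth muscle protein, had differences of -5.39, -4.51 and -2.86, each ± 0.45. Cdh1, the cadherin of epithelial junctions, stood at -1.48, -2.21 and -2.37 in forebrain, at 5.48, 5.56 and 5.56 in prostate, at 2.01, 2.02 and 2.21 in ovary, and at 3.04, 3.86 and 4.03 in skin. Krt8 and Krt18, keratins of simple epithelium, were lower than in prostate and ovary but overlapped with skin.

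Among 8 fibroblast genes, Twist1, Vim and S100a4 were lower and Thy1 was higher. Thy1 is also a surface protein of neurons, and stood at -0.01, 0.18 and 0.29 in forebrain against -6.65 to -2.62 elsewhere. Lists of 1 other tissue gave few calls, since a gene had to differ from all 3. No gene of 6 prostate secretory and 10 ovarian genes was called against every tissue, 3 of 6 keratinocyte genes were lower, and of 9 skeletal muscle genes Tnnt3 was lower, a call lost without forebrain array 2 or 3 or any 1 ovary array, when its nearest difference was -1.96 to -1.31. These lists were highest in their own tissue, over members measured on all 12 arrays. The mean level of keratinocyte genes was 5.87 to 6.68 in skin and at most 1.63 elsewhere, in prostate. That of ovarian genes was 2.15 to 3.32 in ovary and at most -3.41 elsewhere. For prostate secretory genes it was -0.30 to -0.20 in prostate and at most -3.99 elsewhere, in skin. Sbp, a secreted prostate protein, is not in that mean. It stood at 9.27 and 8.16 on 2 prostate arrays, with its spot on the other marked as an outlier.

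Antigen presentation and complement genes were lower in forebrain for 8 of 10 and 8 of 9. Median differences were -3.87, -3.94 and -2.98 for the first list, or -3.43, -3.79 and -2.32 with dim genes at their bound, and -4.11, -4.0 and -3.41 for the second. RT1-Da, a class II chain, stood at -0.84, -0.64 and -0.53 in forebrain, 4.36, 4.45 and 4.17 in prostate, 4.01, 3.51 and 4.23 in ovary, and 2.90, 3.21 and 3.15 in skin. The differences were -4.99, -4.59 and -3.76, each ± 0.21, with adjusted p of at most 1.2e-07. B2m, the shared light chain of class I, was nearer at 4.84, 4.74 and 4.85, with differences of -2.01, -1.72 and -2.56. C1s, the protease that starts the classical complement pathway, had differences of -4.36, -4.86 and -3.72. C3, the central complement protein, was not called: forebrain stood at 2.13, 2.02 and 2.19, within the range of ovary at 1.57, 4.95 and 1.11. Of 6 lymphocyte genes, Cd3g, Cd4 and Cd8a were lower, that of Cd4 being lost without forebrain array 2 (nearest difference -1.18).

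**Figure D4:**
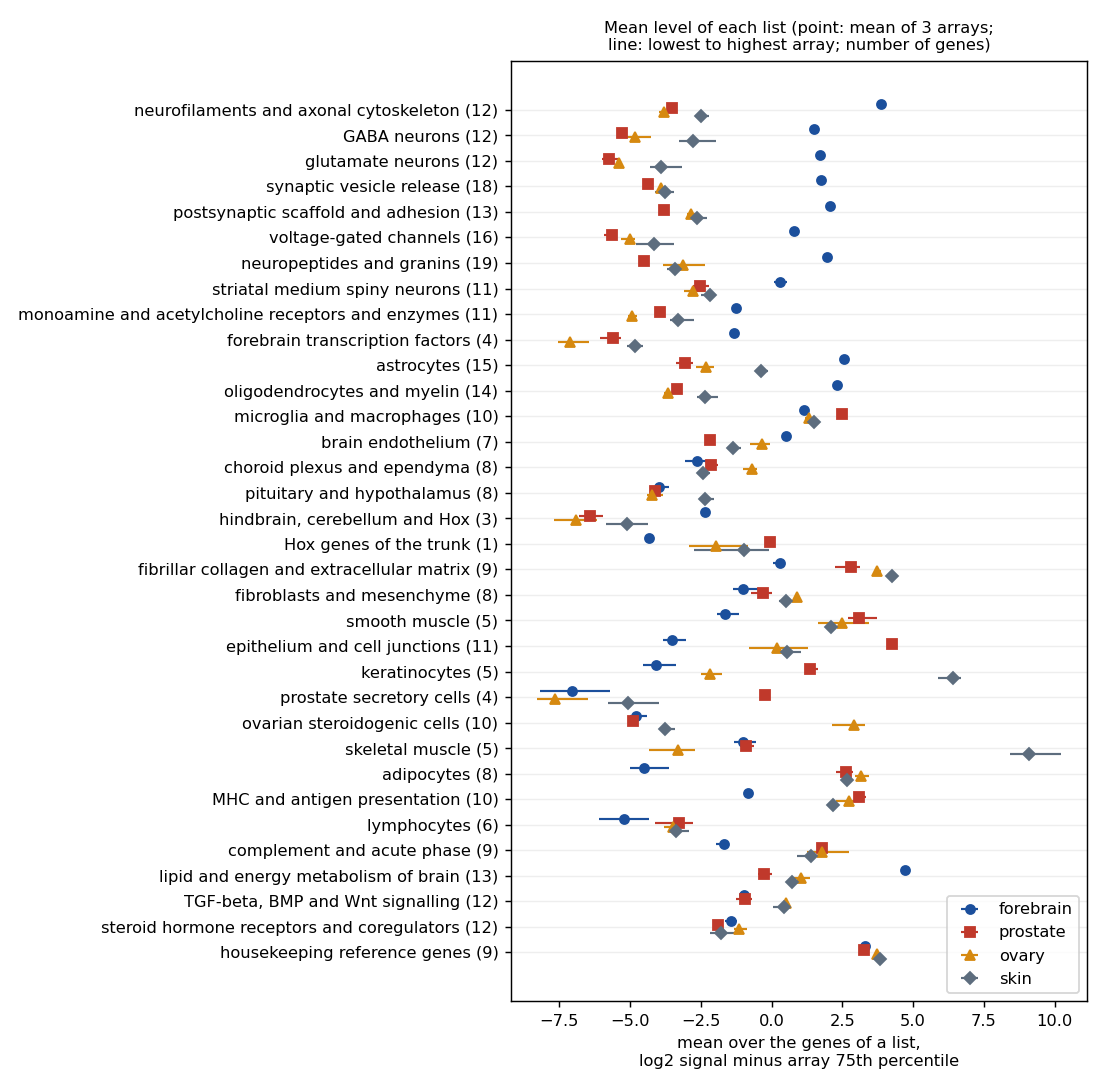
Mean level over the genes of each list measured on all 12 arrays (x axis, log2 signal minus the 75th percentile of the array; number of genes in parentheses) in each tissue; points are means of 3 arrays and lines run from the lowest to the highest array. For axonal genes the forebrain arrays lie between 3.80 and 3.90, and for adipocyte genes between -4.98 and -3.63.

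Genes of brain energy and ion metabolism were higher for 11 of 13. Ckb, brain creatine kinase, stood at 6.97, 6.91 and 6.76 in forebrain and between 3.37 and 4.65 elsewhere, with differences of 2.55, 3.21 and 3.19. Atp2b2, a calcium pump of neurons, stood at 6.46, 6.30 and 6.30 and was at least 3020-fold higher than in prostate. Uchl1, a neuronal ubiquitin hydrolase, stood at 5.77, 5.77 and 5.82, with a smallest difference of 4.11 ± 0.41. Of 12 genes of TGF-beta, BMP and Wnt signalling, Tgfb1, Tgfb3, Tgfbr1, Tgfbr2 and Bmp2 were lower and Dkk3 was higher. Tgfb1 stood at -3.46, -3.75 and -3.63 in forebrain and between -1.94 and 0.05 elsewhere.

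Of 13 steroid receptor and metabolism genes, Nr3c1, Pgr, Thra, Nr4a2 and Hsd11b1 were higher in forebrain and 2 were lower, Fkbp5 among them. The share of lower calls is close to that over all features, 15.8%, and 15.3% of all features were higher. The higher calls fell to 1 and the lower to 1 both on the vehicle arrays and in a test against a 2-fold difference. The call of Hsd11b1, which regenerates active glucocorticoid, was lost without forebrain array 2 or 3 or ovary array 1 or 3, when its nearest difference was 0.92 to 1.11. Fkbp5, a receptor chaperone that androgens and glucocorticoids induce, stood at 2.17, 2.40 and 2.50 in forebrain, with differences of -4.69 ± 0.24, -2.43 ± 0.21 and -1.14 ± 0.21. Of its 2 other probes, 1 was not called, with a difference of 0.70 against skin. Nr3c1, the glucocorticoid receptor, was higher by 0.70, 0.53 and 0.75, each ± 0.14, at 1.85, 1.61 and 1.55 in forebrain and between 0.85 and 1.18 elsewhere. Thra, a thyroid hormone receptor, stood at 3.12, 3.30 and 3.43, with differences of 3.85, 2.36 and 2.13. Esr1, an estrogen receptor, was not well above background in forebrain or prostate, and stood at -4.35, -2.62 and -3.59 in ovary and -2.68, -3.79 and -4.02 in skin.

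**Figure D5:**
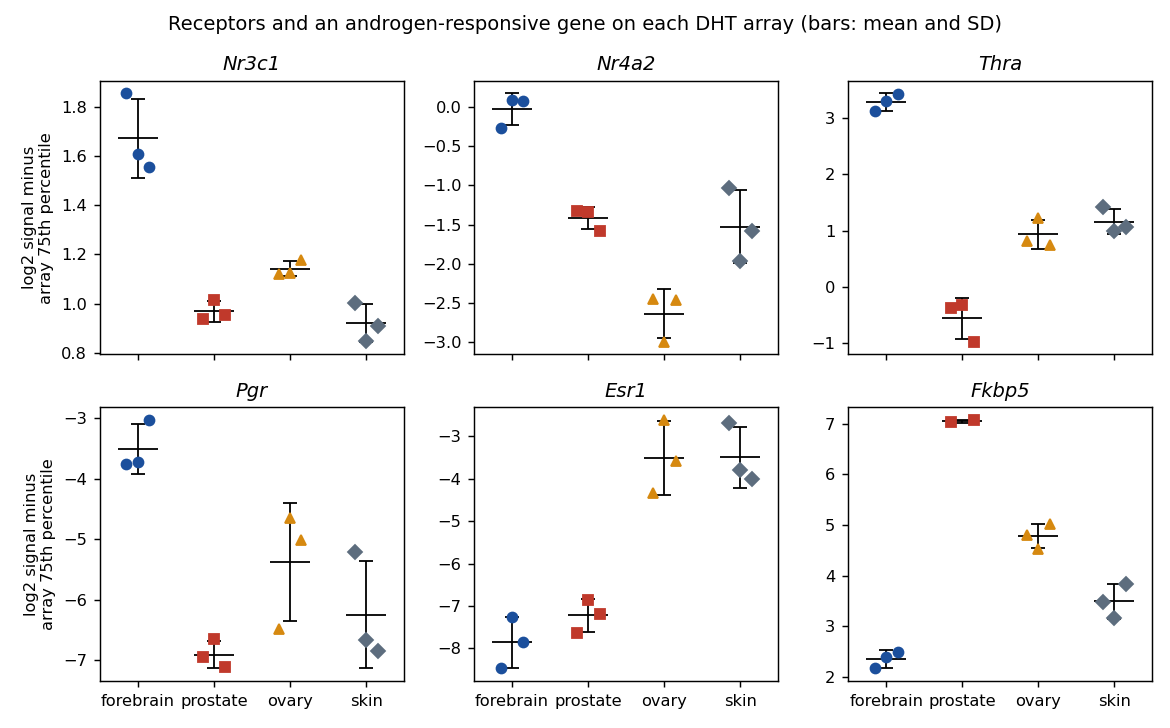
Level of 5 receptor genes and Fkbp5 (y axis, log2 signal minus the 75th percentile of the array) on each DHT array of the 4 tissues (x axis); points are arrays and black bars the mean and SD. The 3 forebrain arrays of Fkbp5, between 2.17 and 2.50, lie below all others, and those of Thra, between 3.12 and 3.43, above all others.

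Of 12 housekeeping genes, Hprt1 and Ywhaz were higher, Gusb and Rplp0 lower and 8 neither. These shares are close to those over all features, 15.3% higher and 15.8% lower. The higher calls fell to 0 where a difference of at least 2-fold was asked in each comparison. Without forebrain array 1 the call of Hprt1 was lost, and its nearest difference was 0.48. Gapdh, a glycolytic enzyme, stood at 6.76, 6.53 and 6.60 in forebrain, 4.78, 4.97 and 4.79 in prostate, 5.99, 6.66 and 6.0 in ovary and 10.58, 8.85 and 8.93 in skin. Sdha, a subunit of respiratory complex II, differed by -0.06, -0.27 and 0.32, each ± 0.25.

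Replicate forebrain arrays lay close together over genes called higher, but such a choice of genes itself favours a small spread. Over 1163 genes that were higher than in every other tissue and well above background on all 3 forebrain arrays, the median range between the arrays was 0.22, and 14 genes had a range over 1. The lowest array was array 1 for 44.6% of them, array 2 for 24.9% and array 3 for 30.4%. The largest ranges were those of the chemokine receptor Cxcr1 (2.24), the fatty acid transporter Slc27a2 (1.72), the calcium-binding protein Cabp7 (1.61), Mepe (1.24), Drd1 (1.22), the protease Mmp9 (1.18), Or12j4 (1.15), Cyp3a62 (1.14), Qrfpr (1.07) and the proteoglycan Cspg5 (1.05). Cabp7 stood at 2.98, 3.32 and 1.71, with array 3 the lowest, and still lay above every array of the other tissues. The calls of Cxcr1, Slc27a2, Or12j4 and Cyp3a62 were lost when some single arrays were left out, with nearest differences of 1.40 and 1.65 for Cxcr1, 1.37 to 1.91 for Slc27a2, 1.73 to 2.38 for Or12j4 and 1.52 for Cyp3a62.

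Each of the 3 slides held 1 array of every tissue, and the differences were recomputed within each slide. The median difference of axonal genes from the mean of the other tissues was 6.97, 6.74 and 7.02 on the 3 slides, that of GABA genes 5.45, 5.90 and 6.08, that of glutamate genes 5.80, 6.19 and 6.48, and that of adipocyte genes -7.20, -7.38 and -7.26. Over all features it was -0.12, -0.33 and -0.33.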

How the data were processed

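RNA of each sample was labelled with Cy3 and hybridised to 1 array, per the labels' protocols. The deposited files hold 42429 spots per array, and the value used, the intensity of the processed signal on a linear scale, was background-subtracted but not normalized between arrays by the authors, per the file headers (Agilent Feature Extraction 10.5.1.1; the submitters' processing notes give 10.1). The 1417 control spots and spots marked as outliers were left out, and no spot was saturated. Of 41012 probes, 10804 were given 1 of 8939 symbols by matching their accession to a RefSeq table of GRCr8, and the other 30208 were tested under their own identifier and not named.

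The log2 signal minus the 75th percentile of the array was fitted over the 12 DHT arrays with limma 3.58.1 in R 4.3.3, with tissue as the factor. Probes had to be well above background on 3 or more of the 12 arrays, and a gene was represented by its brightest probe on average. Of 76 list genes with several tested probes, 13 had a probe of another call: Camk2b, Sv2b, Cacna1b, Cacna1e, Aqp4, Cald1, Cldn4, RT1-Bb, RT1-Db1, Hk1, Tgfbr1, Fkbp5 and Hprt1. In a simulation of 31896 features with shifts placed on 100 of them at each size, 17% of 2-fold and 50% of 4-fold shifts were called in all 3 comparisons, with 1 false call among the unshifted features. The unshifted features had the same mean in every tissue there, whereas in the data a large share of features differed. The adjusted p depends on that share, so the simulated rates do not describe the calls made here. The design text speaks of castrated males for every tissue, the sample labels of intact females for ovary, and the labels were followed.

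The members, the 34 gene lists (485 entries, of which 363 were on the array with a symbol and 349 were tested) and the promoter motifs were chosen with earlier results of these data known. Named were the marker genes, the 15 genes farthest above and below the nearest tissue, early and opposed members of each list, the 10 genes with the largest range in forebrain, and list members detected in forebrain alone. Other list members, and the genes with a motif, were named after their values were seen, and some genes that the rule names are not reported here. Alternatives were quantile normalization, normexp on the median signal, filters, a slide block, array weights, single probes, a 2-fold threshold, vehicle arrays and leaving out each array.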

Additional observations from a re-analysis of the deposited data

How the results depend on the processing

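The counts of genes higher and lower than every other tissue, 4867 and 5024, were 5028 and 5003 with quantile normalization, 4881 and 5062 with slide as a replicate block, and 3356 and 4816 with normexp on the median signal, an alternative added after seeing the data because the mean signal it was planned on was not in the columns used here. Same-slide samples of different tissues had correlated deviations of -0.039 to 0.248, over 0.1 for 10 of 18 pairs, against 1 of 36 pairs on different slides. The main values have no block, as the design was written, and the blocked counts stand beside them. Of the 256 called genes among 376 followed, 256 kept their call with the block, 254 with quantile normalization and 228 with normexp. Normexp gave 20186 features lower than in skin, so that 24.4% of calls against skin were higher, against 43.4%. It moved the median of all features against skin to -1.25, and quantile normalization moved it to -0.06. A test against a 2-fold difference (treat) gave 2647 higher and 1562 lower than every tissue, with 5144 and 5042 against prostate, 4188 and 3934 against ovary, and 5357 and 7075 against skin, since it asks for more than a difference. The 11 vehicle arrays gave 2548 and 2926, with 7051 lower than prostate, 3776 higher than ovary (32.5% of calls, against 46.0%) and 7755 lower than skin. Ovary vehicle arrays 1 and 3 stood apart in their share of probes well above background, and the cause of these counts was not tested. On the vehicle arrays the higher calls were 2 for monoamine genes, 1 for forebrain transcription factors, 3 for choroid plexus, 1 for hindbrain, 7 for brain metabolism, 1 for steroid receptors and 0 for housekeeping genes, and the lower calls 1 each for microglia, choroid plexus, lymphocytes and steroid receptors and 3 for smooth muscle. With treat the higher calls were 5 for striatal, 1 for endothelial, 7 for brain metabolism, 1 for steroid receptor and 0 for housekeeping genes, and the lower calls 1 for microglia, 0 for fibroblasts, 3 for smooth muscle, 4 for epithelium, 0 for lymphocytes, 2 for TGF-beta, BMP and Wnt and 1 for steroid receptors. Clic6, lower on the DHT arrays, had a mean difference of 1.09 on the vehicle arrays and no call there.

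Leaving out 1 array at a time gave 3816 to 5360 genes higher and 4172 to 5478 lower than every tissue. Against prostate the counts were 7024 to 8958 higher and 9562 to 11494 lower, against ovary 6447 to 9022 and 8253 to 10357, and against skin 8381 to 10108 and 11176 to 12522. Without any 1 forebrain array, 578 to 595 of the higher calls were no longer tested, since a probe needs 3 arrays, and Neurod1 and Calb1 were among them. The monoamine list then had 3 higher calls. Without forebrain array 1, 5 fibroblast genes were lower, 2 muscle genes were lower and 1 housekeeping gene was higher; without skin array 1 or 3, 2 muscle genes were lower, and without ovary array 3 or skin array 3, 2 choroid plexus genes were higher. Of the 256 called genes, 171 kept their call in every setting in which they were tested. Signal over background limits skin, where dim genes have only bounds.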

Other observations

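Genes of the choroid plexus, the epithelium that secretes cerebrospinal fluid, had other levels on the 2 forebrain vehicle arrays, which lie on other slides. Ttr stood at -2.18, -2.55 and -3.20 on the DHT arrays and at 4.89 and 7.23 on the vehicle arrays. Aqp1 stood at -2.53, -1.98 and -2.50 on the DHT arrays and at -0.24 and 0.64 on the vehicle arrays. Of the list, 1 gene was called higher than every other tissue on the DHT arrays and 3 on the vehicle arrays. The difference between the treatments was not tested here, and treatment and slide cannot be told apart.

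Of 39 features well above background on all 9 arrays of the other tissues and on no forebrain array, 10 had a symbol: Ccl20, Cma1, Irx2, Kng2, Lpp, Mmrn1, Osr2, Pon3, Serpinb5 and Wfdc18. Cma1, the chymase of mast cells, was at least 201-fold, 15.9-fold and 462-fold lower in forebrain than in prostate, ovary and skin.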
